A study of Rattus norvegicus with 2 samples.

Results

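Mitosis and kinetochore genes were taken as the rows of the deposited gene table whose symbol is one of 55 named members, and all 55 were found among the 21224 gene rows, each on a single row. They encode the machinery that condenses, attaches and separates chromosomes and then divides the cell. The members were sorted by known function into 8 role groups, from the kinases of mitotic entry to the proteins of cytokinesis. RNA came from cortical neurons of rat embryos at E18, treated with small interfering RNA against Ythdf3 (siYthdf3) or with the negative control small interfering RNA (siNC). Ythdf3 encodes a reader of the m6A mark on messenger RNA. The labels name no allele, transgene or further agent in either group. With 1 library in each group, differences have no replicate check, and no p-values are given.

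Mitosis begins when CDK1, bound to A- and B-type cyclins, is switched on by CDC25 phosphatases and supported by the Polo and Aurora kinases. Condensin and topoisomerase II compact the chromosomes, kinetochores built on CENP-A chromatin capture spindle microtubules, and the spindle checkpoint holds back the anaphase-promoting complex until attachment is complete. Most of these genes are transcribed in cells that cycle, with a peak in G2 and M, and are silent in cells that have left the cycle. Neurons do not divide, whereas radial glia, intermediate progenitors and glial precursors of the embryonic cortex do.

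Reads assigned to genes numbered 22586543 in the siYthdf3 library and 15392218 in the siNC library. Values are FPKM, reads scaled by gene length and library total, so levels can be compared between genes. The log2 ratio is that of siYthdf3 over siNC after 0.5 FPKM was added to each, which understates the differences of low genes. Intervals are exact Clopper-Pearson 95% intervals of the ratio of FPKM values without that addition, and cover counting error only. Ythdf3 itself was at 6.93 FPKM in siYthdf3, against 9.38 FPKM in siNC, with a ratio of 0.739 (interval 0.675 to 0.809), and Wwtr1, the gene in the study's title, at 2.96 FPKM in siYthdf3, against 6.23 FPKM in siNC.

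Mitosis and kinetochore genes were lower in siYthdf3 almost throughout. A filter on low values, a mean of 1 FPKM or more, was passed by 54 members and 13172 genes, and Cenpm, a centromere subunit at 0.521 FPKM in siYthdf3, against 1.06 FPKM in siNC, was short of it. Of the 54, 53 had a log2 ratio below 0, where 51.9% of all 13172 genes did. At least 2-fold lower were 14 of the 54, where 0.896% of all genes were, and at least 1.5-fold lower were 42, where 3.95% of all genes were. The median log2 ratio was -0.84 over the 54 members and -0.01 over all 13172 genes, whose quartiles were -0.17 and 0.14. No member was at least 1.5-fold higher, where 2.41% of all genes were.

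The members made up 11.9% of the 118 genes of the table that were at least 2-fold lower, and these were 25.9% of the 54 members. On the FPKM ratio itself, with nothing added, 20 members were at or below 0.5. The division at 2-fold is narrow, since Nuf2 at -1.02 lies just inside it and Ndc80 at -0.999 just outside. The interval lay below 1 for 52 of the 54 members, where it did for 22.2% of all genes, and Cdc25b was the member whose interval included 1. It lay above 1 for Zwint alone, where it did for 20% of all genes. Intervals of abundant genes are narrow, so these counts depend on depth.

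**Figure D1:**
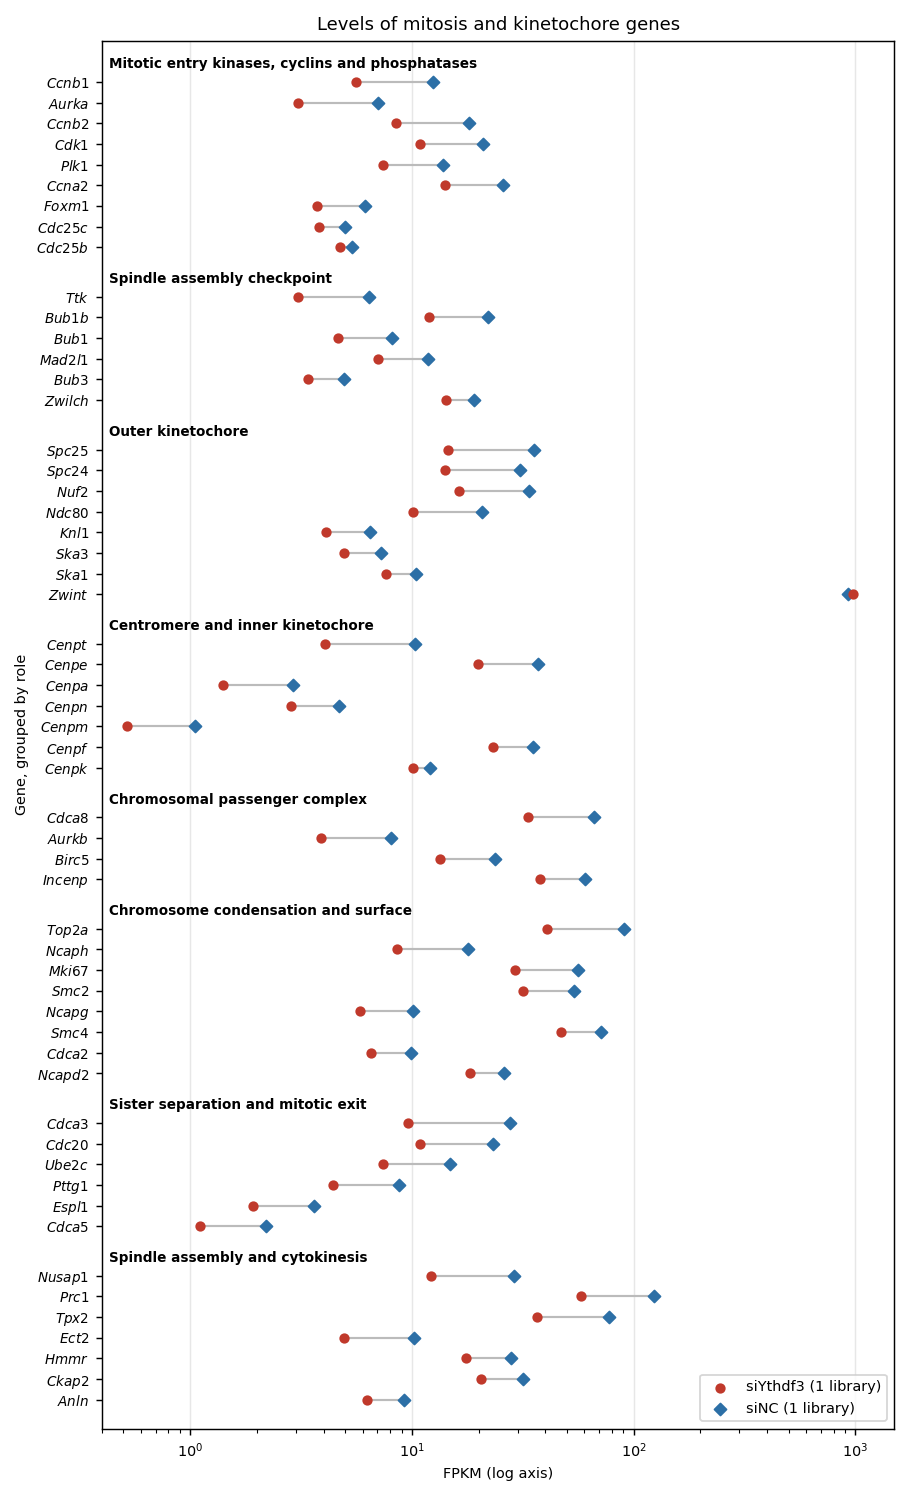
Level of each of the 55 mitosis and kinetochore genes in FPKM (log axis) in the siYthdf3 library (red circles) and the siNC library (blue diamonds), 1 library each, grouped by role and sorted by log2 ratio. The siYthdf3 point lies left of the siNC point for every gene but Zwint, which stands apart at 978 FPKM in siYthdf3, against 924 FPKM in siNC.

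The 54 members other than Zwint had levels between 0.521 and 57.9 FPKM in siYthdf3, with a median of 8.51, and between 1.06 and 124 FPKM in siNC, with a median of 16.4. They took 0.292% of all reads in siYthdf3 and 0.528% in siNC, and the ratio of their summed reads was 0.553 (interval 0.548 to 0.559). Their order was nearly kept between the libraries, with a Spearman rho of 0.97 across the 53 of them past the filter. These genes share library and depth and span a wide range of levels, so a high rho says little. It was not computed over all genes. In both libraries Prc1 was the highest of the 54 and Cenpm the lowest.

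Markers of cell types moved in the same library. In bulk RNA, fewer cells of a type and less RNA per cell cannot be told apart. The 9 neuron markers, all detected, summed to 1135 FPKM in siYthdf3, against 989 FPKM in siNC, with a median log2 ratio of 0.30 and 8 of 9 above 0. The 9 radial glia markers summed to 1436 FPKM in siYthdf3, against 2099 FPKM in siNC, with a median of -0.30. Fabp7, named with its value known, and Vim made up most of that sum. The interval lay below 1 for 6 of the 9, where it did for 22.2% of all genes. Vim was at 357 FPKM in siYthdf3, against 708 FPKM in siNC, and Nes at 60.0 FPKM in siYthdf3, against 110 FPKM in siNC. Hes1 and Hes5, named with their values known, were at 4.46 and 1.79 FPKM in siYthdf3, against 4.55 and 1.65 FPKM in siNC. Both of their intervals included 1. Of the 5 intermediate progenitor markers, 4 passed the filter, with a median of -0.93 and 3 of the 4 below 0. The lowest, Eomes, was at 0.743 FPKM in siYthdf3, against 4.34 FPKM in siNC. Btg2 went the other way, with a log2 ratio of 0.21 and an interval of 1.02 to 1.34. The part of these cell types in the lower mitotic genes was not tested.

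**Figure D2:**
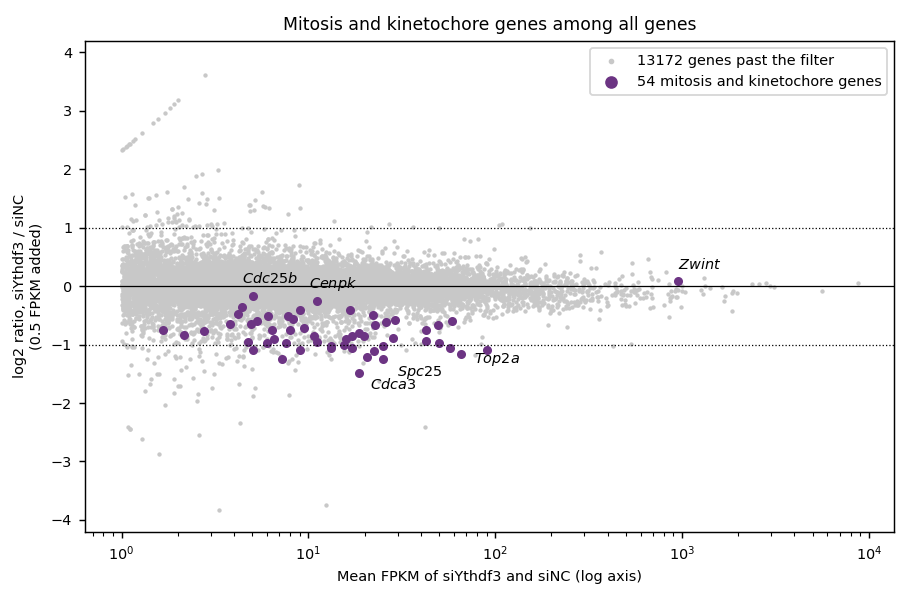
The log2 ratio of siYthdf3 over siNC (0.5 FPKM added) against the mean FPKM of both libraries (log axis) for 13172 genes (grey) and 54 mitosis and kinetochore genes (purple), with dotted lines at 2-fold. The purple points form a band around -0.84 below the bulk of genes, and Zwint lies above 0 at the far right.

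Promoters of the members are shown as a description of their sequence, and their part in the lower ratios was not tested. In cycling cells the CHR element and CCAAT boxes are known as the binding sites of the MuvB complexes and of NF-Y, through which many mitotic genes are repressed at rest and switched on in G2. RefSeq windows of 250 bases before to 50 bases after the gene start (build GRCr8) were at hand for 45 of the 55 members. Those without one were Aurkb, Ccna2, Cdca2, Cenpt, Foxm1, Incenp, Tpx2, Ube2c, Zwilch and Zwint. The windows below, read 5′ to 3′ on the strand of the gene, belong to the 3 members with the lowest ratios among those holding a CHR or its variant, and to Cdc25b, the member nearest to no difference among those with a window. Capitals mark the CHR (TTTGAA), its variant (TTCGAA) and the CCAAT box (CCAAT), each on either strand.
Spc25: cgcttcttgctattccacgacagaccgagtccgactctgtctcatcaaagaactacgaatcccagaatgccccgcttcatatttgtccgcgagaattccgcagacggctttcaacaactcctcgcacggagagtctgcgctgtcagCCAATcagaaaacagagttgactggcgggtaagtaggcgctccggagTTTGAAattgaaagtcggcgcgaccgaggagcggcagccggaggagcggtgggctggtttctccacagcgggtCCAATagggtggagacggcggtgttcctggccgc
Nusap1: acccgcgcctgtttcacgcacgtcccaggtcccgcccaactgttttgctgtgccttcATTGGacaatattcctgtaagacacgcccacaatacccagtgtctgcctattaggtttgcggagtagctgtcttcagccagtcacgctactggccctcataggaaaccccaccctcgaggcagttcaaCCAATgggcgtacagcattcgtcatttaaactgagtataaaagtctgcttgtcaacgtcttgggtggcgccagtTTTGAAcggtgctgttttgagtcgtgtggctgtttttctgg
Top2a: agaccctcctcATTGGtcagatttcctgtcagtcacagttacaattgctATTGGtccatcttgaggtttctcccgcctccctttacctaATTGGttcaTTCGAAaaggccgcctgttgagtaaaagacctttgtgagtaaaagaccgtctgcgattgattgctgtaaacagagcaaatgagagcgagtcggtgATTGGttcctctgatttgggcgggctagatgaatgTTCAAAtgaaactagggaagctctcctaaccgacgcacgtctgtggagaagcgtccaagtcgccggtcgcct
Cdc25b: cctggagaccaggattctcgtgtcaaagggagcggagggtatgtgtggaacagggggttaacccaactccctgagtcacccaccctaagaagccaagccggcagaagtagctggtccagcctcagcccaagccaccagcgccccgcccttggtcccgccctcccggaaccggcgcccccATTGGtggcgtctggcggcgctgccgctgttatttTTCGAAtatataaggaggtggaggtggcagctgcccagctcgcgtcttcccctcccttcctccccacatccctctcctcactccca

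Spc25 (chr3:74396669-74396968, minus strand) held a CHR 57 bases before the start and CCAAT boxes 104 bases before it and at base 17 after it. Nusap1 (chr3:127057045-127057344, plus strand) held a CHR just after the start, at base 10, and CCAAT boxes 65 and 193 bases before it. Top2a (chr10:84473044-84473343, minus strand) held 4 CCAAT boxes, all inverted, and a CHR on the opposite strand 22 bases before the start. It also held the CHR variant 152 bases before the start. Cdc25b (chr3:138859923-138860222, plus strand), whose ratio was 0.879 (interval 0.747 to 1.04), held the CHR variant 36 bases and an inverted CCAAT box 71 bases before the start.

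The CHR was in the windows of 33 of the 45 members (73.3%), in 18.3% of all 33469 promoter windows and in 11.7% of the 10814 windows of genes past the filter. It lay between 100 bases before and 50 bases after the start in 66.7% of member windows, and in 8.21% of all windows. A CCAAT box was in 73.3% of member windows and 37.5% of all windows, and 2 or more in 51.1% of member windows and 11.2% of all windows. An E2F motif, searched as TTTGGCGC, TTTCCCGC, TTTGCCGC or TTTCGCGC on both strands, was in 1 member window, that of Cdk1, and in 2.14% of all windows. Matches were allowed to overlap each other, and a match describes letters, not a bound site.

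Within the members, the median log2 ratio was -0.83 over the 33 members with a CHR and -0.82 over the 12 without. With the variant counted as well it was -0.78 over the 36 with either and -1.03 over the 9 without. It was -0.95 over the 23 with at least 2 CCAAT boxes and -0.75 over the 22 with fewer. Cdca3, the member with the lowest ratio, held 3 CCAAT boxes and no CHR, and Aurka, Bub1, Ncaph and Ska3 held none of the motifs. These are descriptions of small groups with no test.

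**Figure D3:**
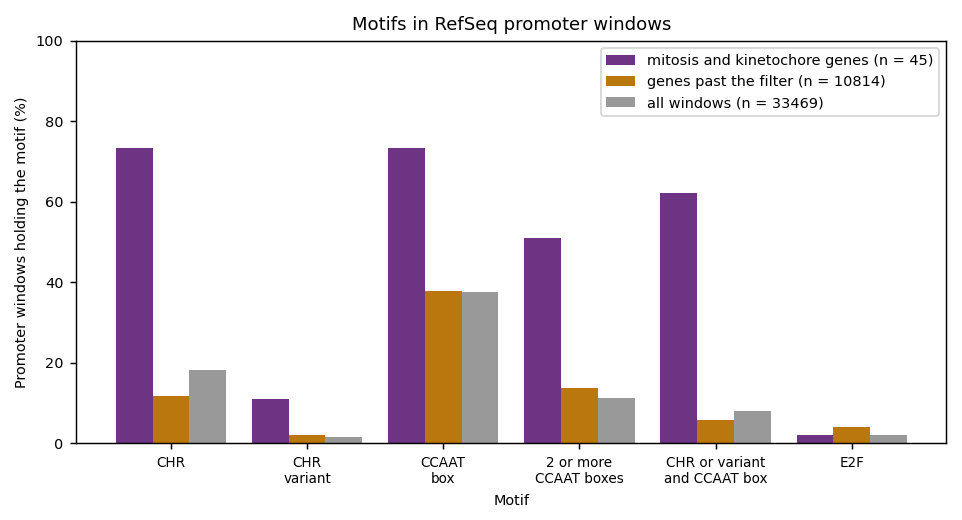
Share of promoter windows (300 bases) that hold each motif on either strand, for 45 mitosis and kinetochore genes (purple), 10814 windows of genes past the filter (ochre) and all 33469 windows (grey). The CHR stands at 73.3% in the members and 18.3% in all windows, and the E2F letters at 2.22% in the members and 2.14% in all windows.

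Kinases, cyclins and phosphatases of mitotic entry were lower, the phosphatases least. Of 9 members, 3 were at least 2-fold lower, 7 at least 1.5-fold lower, and the median log2 ratio was -0.86. Cdk1, the kinase that drives entry, was at 10.9 FPKM in siYthdf3, against 20.8 FPKM in siNC, with a ratio of 0.523 (interval 0.452 to 0.605). Its partner Ccnb1 was at 5.62 FPKM in siYthdf3, against 12.5 FPKM in siNC, and Ccnb2 at 8.47 FPKM in siYthdf3, against 18.1 FPKM in siNC. The log2 ratios of the B-type cyclins, -1.08 and -1.05, lie beside -0.90 for their kinase, with overlapping intervals. Ccna2, the cyclin of S phase and early mitosis, was at -0.85.

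Aurka, which matures centrosomes, was at 3.06 FPKM in siYthdf3, against 7.05 FPKM in siNC, with a ratio of 0.434 (interval 0.359 to 0.524). Plk1, the Polo kinase of mitotic entry and spindle assembly, was at 7.45 FPKM in siYthdf3, against 13.9 FPKM in siNC. Foxm1, a transcription factor that activates genes of G2 and M and whose span is shared with Nrip2 and Tex52 on the same strand, was at 3.73 FPKM in siYthdf3, against 6.16 FPKM in siNC, with a ratio of 0.605 (interval 0.523 to 0.700). The CDC25 phosphatases, which activate CDK1, differed least. Cdc25b was at 4.73 FPKM in siYthdf3, against 5.38 FPKM in siNC, and Cdc25c at 3.81 FPKM in siYthdf3, against 5.01 FPKM in siNC, with a ratio of 0.760 (interval 0.609 to 0.948). The interval of Cdc25b does not overlap those of Cdk1, Ccnb1, Ccnb2, Plk1 or Aurka.

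Genes of the spindle checkpoint were lower as well. All 6 had intervals below 1, 4 were at least 1.5-fold lower, and the median was -0.73, with none 2-fold lower on that scale. The checkpoint kinase Ttk was at 3.07 FPKM in siYthdf3, against 6.42 FPKM in siNC, with a ratio of 0.479 (interval 0.403 to 0.568). Bub1b, which encodes the checkpoint protein BUBR1, was at 12.0 FPKM in siYthdf3, against 22.2 FPKM in siNC, and the kinase Bub1 at 4.63 FPKM in siYthdf3, against 8.15 FPKM in siNC. Mad2l1, which binds and holds CDC20, was at -0.71. Bub3, the partner that anchors BUB1 and BUBR1 at kinetochores, was at 3.41 FPKM in siYthdf3, against 4.96 FPKM in siNC, and Zwilch, a subunit of the RZZ complex, at 14.2 FPKM in siYthdf3, against 19.0 FPKM in siNC. These last genes had the ratios nearest to 1 of the group, 0.689 for Bub3 and 0.747 for Zwilch.

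Outer kinetochore genes were lower except Zwint. The NDC80 complex, a rod of 4 proteins that grips microtubules, was at 10.1 to 16.4 FPKM in siYthdf3 and 20.7 to 35.4 FPKM in siNC, so its genes lay within 1.62-fold of each other in siYthdf3 and 1.71-fold in siNC. Spc25 (chromosome 3, 53975704 to 53988959, minus strand, in the coordinates of the deposited table) was at 14.6 FPKM in siYthdf3, against 35.4 FPKM in siNC, with a ratio of 0.411 (interval 0.365 to 0.464). Spc24 was at 14.1 FPKM in siYthdf3, against 30.8 FPKM in siNC. Nuf2 and Ndc80 followed with ratios of 0.486 and 0.488. The summed reads of the 4 genes had a ratio of 0.471 (interval 0.449 to 0.494).

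Knl1, the scaffold that recruits checkpoint proteins, and the SKA subunits, which stabilise attachments, were less far apart. Knl1 was at 4.11 FPKM in siYthdf3, against 6.48 FPKM in siNC, Ska3 at 4.96 FPKM in siYthdf3, against 7.23 FPKM in siNC, and Ska1 at 7.69 FPKM in siYthdf3, against 10.4 FPKM in siNC. The ratio of the summed SKA reads was 0.703 (interval 0.633 to 0.780), which does not overlap the interval of the NDC80 complex.

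Zwint (ENSRNOG00000048682, chromosome 20, 15938157 to 15953943, minus strand) encodes a KNL1-binding kinetochore protein that is also known in rat brain as a partner of the synaptic protein SNAP-25. It was at 978 FPKM in siYthdf3, against 924 FPKM in siNC, with a ratio of 1.06 (interval 1.04 to 1.08), on 37627 reads in siYthdf3 and 24226 in siNC. Zwint ranked 22 of 21224 rows in siYthdf3 and 33 in siNC, far above Prc1, the next member. It alone made up 58.0% of the summed FPKM of the 55 members in siYthdf3 and 41.2% in siNC. Sums over all members are therefore dominated by a gene that did not move with the rest, and the ratio of the summed reads of all 55 was 0.669 (interval 0.664 to 0.675). Snap25 itself, named with its value known, was at 60.7 FPKM in siYthdf3, against 49.3 FPKM in siNC.

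**Figure D4:**
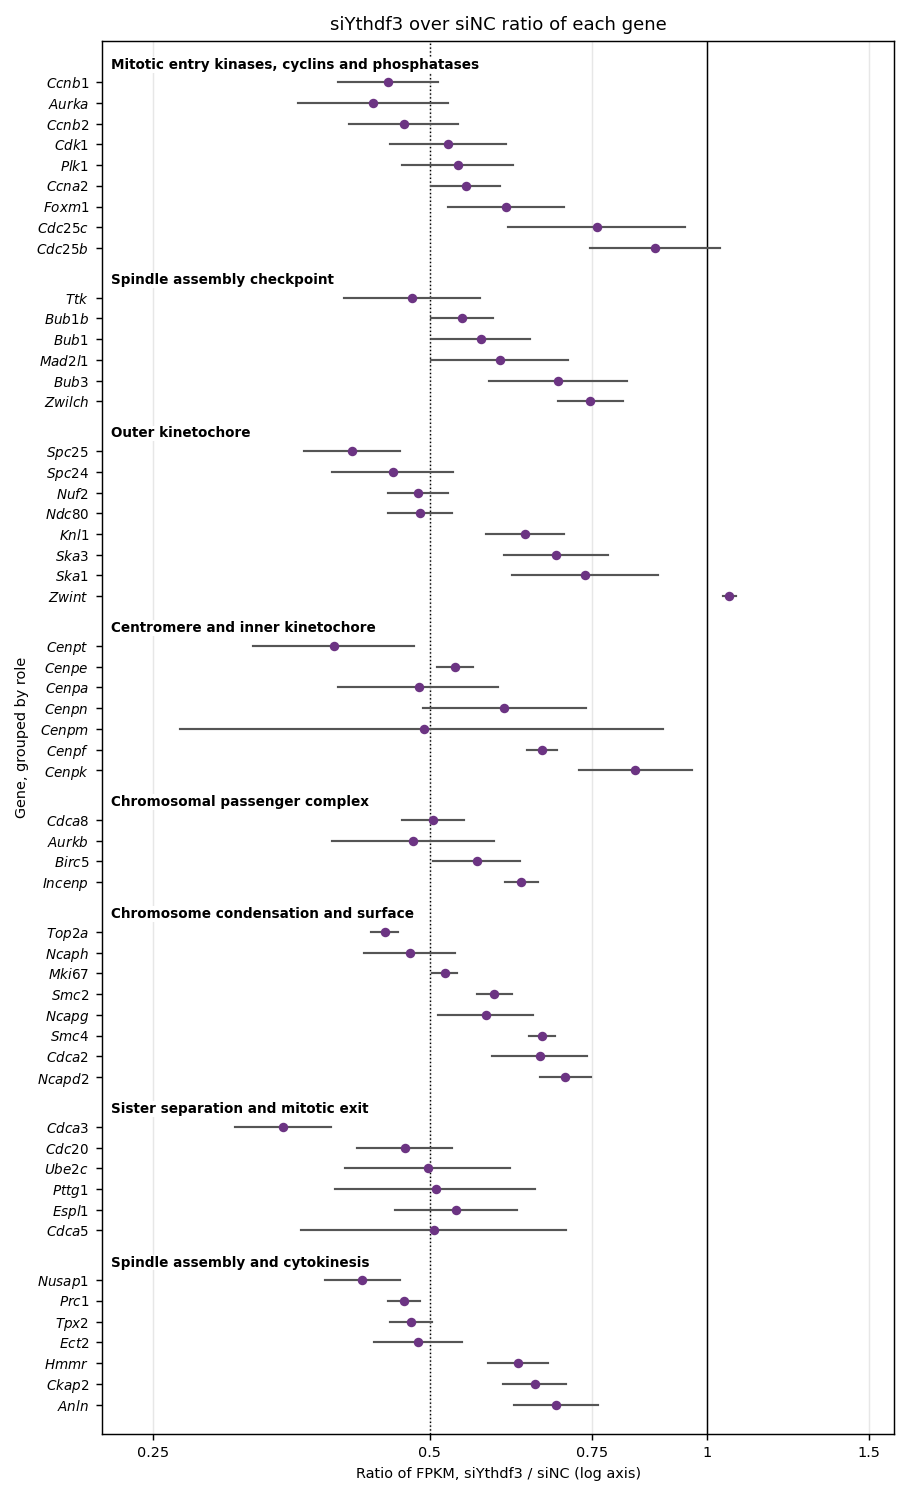
Ratio of FPKM, siYthdf3 over siNC (log axis), for the 55 members by role, with exact 95% counting intervals as bars, a dotted line at 0.5 and a solid line at 1. Zwint is the sole point right of 1, Cdc25b the sole interval that spans 1, and Cdca3 the leftmost point at 0.347.

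Centromere and inner kinetochore genes, a group that also held the corona genes Cenpe and Cenpf, ranged widely. Of 7 members 6 passed the filter, of which 4 were at least 1.5-fold lower, with a median of -0.74. Cenpt, which links centromeric DNA to the NDC80 complex, was at 4.07 FPKM in siYthdf3, against 10.3 FPKM in siNC, with a ratio of 0.394 (interval 0.321 to 0.481), as low as the NDC80 genes. Cenpa, the histone variant that marks the centromere, was at 1.41 FPKM in siYthdf3, against 2.90 FPKM in siNC. Cenpk, a constitutive centromere subunit, was at 10.1 FPKM in siYthdf3, against 12.0 FPKM in siNC, with a ratio of 0.837 (interval 0.726 to 0.964), and its interval does not overlap that of Cenpt.

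Cenpe, a kinesin of the kinetochore corona, was at 19.8 FPKM in siYthdf3, against 37.1 FPKM in siNC, and Cenpf, a large corona protein, at 23.2 FPKM in siYthdf3, against 35 FPKM in siNC. These were the highest genes of the group, and the most deeply read. Their ratios of 0.533 and 0.663 had intervals that do not overlap. Cenpn, which reads CENP-A chromatin, was at 2.85 FPKM in siYthdf3, against 4.72 FPKM in siNC. Cenpm rested on 21 reads in siYthdf3 and 29 in siNC, and its interval of 0.268 to 0.896 is the widest of the members.

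The chromosomal passenger complex, which corrects wrong attachments and guides cytokinesis, was lower in all 4 subunits. Their log2 ratios lay between -0.98 and -0.66, with a median of -0.89. Cdca8, which encodes borealin, was at 33.6 FPKM in siYthdf3, against 66.5 FPKM in siNC, and the kinase Aurkb at 3.88 FPKM in siYthdf3, against 8.10 FPKM in siNC. Birc5, which encodes survivin, was at 13.4 FPKM in siYthdf3, against 23.8 FPKM in siNC. The scaffold Incenp was at 38.0 FPKM in siYthdf3, against 60.4 FPKM in siNC, with a ratio of 0.629 (interval 0.603 to 0.656). Unlike the NDC80 genes, subunits of this complex differed in level by 9.78-fold in siYthdf3 and 8.22-fold in siNC.

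Genes that shape mitotic chromosomes were all lower, with Top2a furthest. Top2a (chromosome 10, 83945735 to 83976874, minus strand), the topoisomerase that untangles sister chromatids, had 5281 reads in siYthdf3 and 8060 in siNC, and its ratio of 0.447 had a narrow interval of 0.431 to 0.462. Mki67, the surfactant of the chromosome surface and the usual marker of proliferation, was at 29.2 FPKM in siYthdf3, against 56.2 FPKM in siNC, with a ratio of 0.519 (interval 0.502 to 0.536). Cdca2, which brings a phosphatase to anaphase chromatin, was at -0.57.

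Subunits of condensin I did not share a ratio. Ncaph, the kleisin that closes the ring, was at 8.56 FPKM in siYthdf3, against 18 FPKM in siNC, with a ratio of 0.476 (interval 0.424 to 0.533). Ncapd2, a HEAT-repeat subunit, was at 18.3 FPKM in siYthdf3, against 26.1 FPKM in siNC, with a ratio of 0.702 (interval 0.658 to 0.748). The ATPases Smc2 and Smc4, which condensin II uses as well, were at ratios of 0.588 and 0.662, and Ncapg at 0.575. The intervals of Ncaph and Ncapd2 do not overlap. The subunits particular to condensin II, which are not members, had log2 ratios of -0.53 for Ncapg2, -0.40 for Ncapd3 and -0.20 for Ncaph2.

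Genes of sister separation and mitotic exit were at least 1.5-fold lower in all 6 members, with a median of -0.93. Cdca3 (ENSRNOG00000015529, chromosome 4, 157634928 to 157638799, plus strand), known as a trigger of mitotic entry that is itself destroyed after mitosis, had the lowest ratio of all members. It was at 9.60 FPKM in siYthdf3, against 27.7 FPKM in siNC, with a ratio of 0.347 (interval 0.307 to 0.391), on 412 reads in siYthdf3 and 810 in siNC. Cdc20, which activates the anaphase-promoting complex, was at 10.9 FPKM in siYthdf3, against 23.3 FPKM in siNC, and Ube2c, the conjugating enzyme that works with that complex and whose span is shared with Tnnc2 on the opposite strand, at 7.41 FPKM in siYthdf3, against 14.9 FPKM in siNC. Separase, encoded by Espl1, and its inhibitor securin, encoded by Pttg1, were lower to a like degree, with ratios of 0.534 and 0.508 and overlapping intervals. Cdca5, which encodes the cohesion factor sororin, was at 1.11 FPKM in siYthdf3, against 2.21 FPKM in siNC.

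Spindle assembly and cytokinesis genes had a median of -0.97 over 7 members, all with intervals below 1. Prc1, which bundles the midzone, was at 57.9 FPKM in siYthdf3, against 124 FPKM in siNC, with a ratio of 0.468 (interval 0.450 to 0.488). Tpx2, which nucleates spindle microtubules and activates Aurora A, was at 36.8 FPKM in siYthdf3, against 77.2 FPKM in siNC. Nusap1, a microtubule bundler, was at 12.2 FPKM in siYthdf3, against 28.9 FPKM in siNC, with a ratio of 0.423 (interval 0.384 to 0.464). Ect2, the exchange factor that starts the cleavage furrow, was at -0.97. Anillin, encoded by Anln, was nearer to 1 at 6.31 FPKM in siYthdf3, against 9.20 FPKM in siNC, as were Ckap2 and Hmmr at ratios of 0.650 and 0.624. The interval of Anln, 0.618 to 0.762, lies apart from those of Prc1, Tpx2, Nusap1 and Ect2.

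Other lists of mitotic genes, outside the members, held both genes at least 1.5-fold lower and genes near 0. All 12 mitotic kinesins were at least 1.5-fold lower, with a median of -0.93, led by the depolymerase Kif2c at -1.31 and Kif11 at -1.03, while Kif18b at -0.71 and Kif15 at -0.62 were the nearest to 0. Of 11 other spindle and cytokinesis genes 9 were at least 1.5-fold lower, among them Ckap2l at -1.11 and Tacc3 at -0.99. The microtubule polymerase Ckap5 was at -0.21. Of 11 further outer kinetochore and checkpoint genes 5 were at least 1.5-fold lower, with Dsn1 of the MIS12 complex at -1.02 and Spdl1 at -0.93, and Zw10 and Mad2l1bp were at -0.04 and 0.03.

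Genes of the anaphase-promoting complex and of cohesin had medians near 0. None of 15 measured genes of the anaphase-promoting complex list was at least 1.5-fold lower, where 3.95% of all genes were. The median was -0.10. The conjugating enzyme Ube2s at -0.40 was lowest, and Anapc1 at 0.21 was highest. Of 14 cohesin genes 3 were at least 1.5-fold lower, with a median of 0.00. The cohesin ring genes Smc1a and Smc3, which were picked with their values known, stood at 294 and 263 FPKM in siYthdf3 and 300 and 260 FPKM in siNC. The third ring gene Rad21, picked in the same way, was at -0.24 with a ratio of 0.848 (interval 0.822 to 0.875). The 3 genes at least 1.5-fold lower were the cohesion protectors Sgo2 at -0.89 and Sgo1 at -0.88 and the acetyltransferase Esco2, named after its value was seen, at -0.87.

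Of 14 further centromere genes 6 were at least 1.5-fold lower, with a median of -0.51. Cenpw and Cenph of the constitutive centromere network were at -0.96 and -0.78, and the abundant Cenpc and Cenpb were at -0.11 and -0.09. Of 16 other genes of mitotic entry 5 were at least 1.5-fold lower, with a median of -0.40. The kinases Melk and Pbk were at -1.19 and -1.18. Cdkn3 was at 0.01, and Pkmyt1, which restrains CDK1, at 0.08.

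Regulators upstream of mitosis showed a mixed picture. Of 17 MuvB, RB and E2F genes past the filter 3 were at least 1.5-fold lower, with a median of -0.29. Mybl2, the MuvB partner that switches on genes of G2 and M, was at 7.73 FPKM in siYthdf3, against 17.5 FPKM in siNC, and the repressor E2f8 was at -1.08. The pocket protein genes Rb1 and Rbl2 were both at 0.09, with intervals that included 1. All 18 DNA replication genes had an interval below 1 and 12 were at least 1.5-fold lower, with a median of -0.67, Mcm3 at -1.62 and Gins1 at -0.92 being lowest. Among 8 G1 cyclins and kinases, Cdk2 was at -1.42 and Ccne2 at -0.88, while Ccnd1 and Cdk6 were at -0.03 and 0.00. All 6 CDK inhibitors past the filter were at or below 0, with Cdkn2c at -1.09, Cdkn1c at -0.82, Cdkn1a at -0.12 and Cdkn1b at 0.00. Cdkn2a, below the filter and named with its value known, was at 0.53 on 14 reads in siYthdf3 and 4 in siNC, and its interval included 1.

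**Figure D5:**
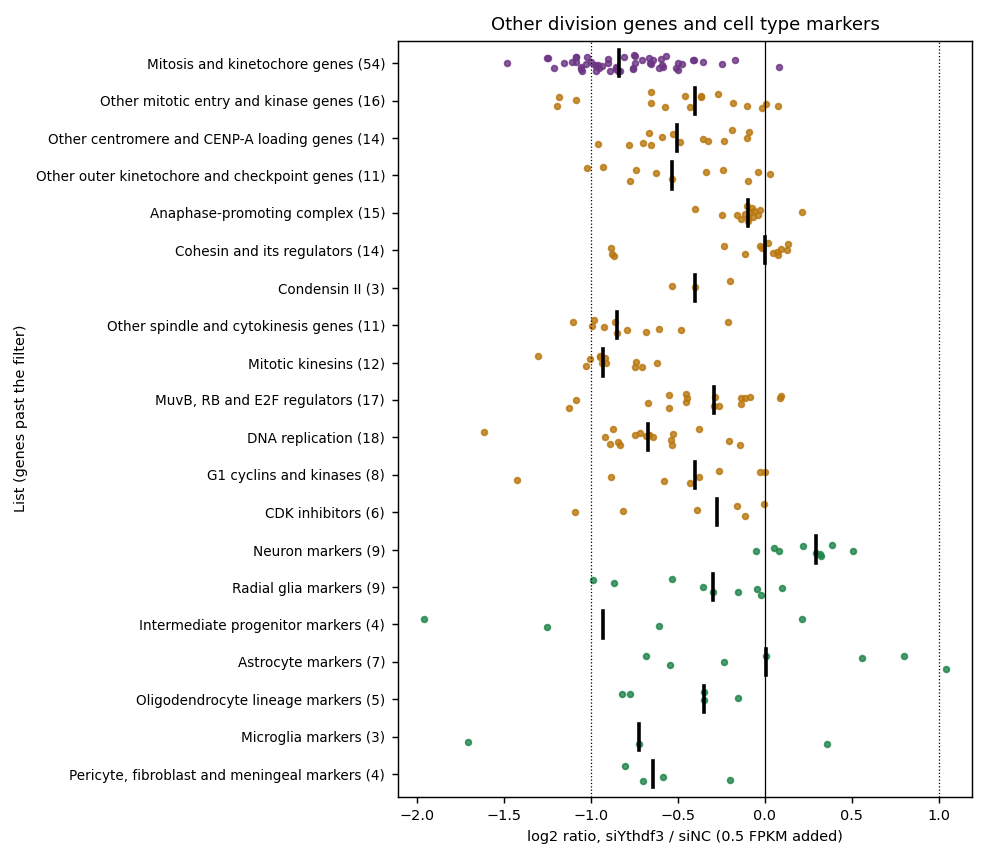
Log2 ratio of siYthdf3 over siNC (0.5 FPKM added) of each gene past the filter, for the mitosis and kinetochore genes (purple), other lists of cell division (ochre) and cell type markers (green), with the number of genes in brackets, black bars at the medians and dotted lines at 2-fold. Mitotic kinesins lie at a median of -0.93, the anaphase-promoting complex at -0.10 and neuron markers at 0.30.

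Markers of other dividing or non-neuronal cells differed in both directions. Of 5 oligodendrocyte lineage markers past the filter 2 were at least 1.5-fold lower, Olig2 at -0.82 and Olig1 at -0.77. The 6 listed summed to 16.3 FPKM in siYthdf3, against 27.3 FPKM in siNC. Astrocyte markers summed to 194 FPKM in siYthdf3, against 120 FPKM in siNC, a gap that lay almost wholly in Gfap, at 141 FPKM in siYthdf3, against 68.2 FPKM in siNC. Their median log2 ratio was 0.01, with 3 of 7 below 0, among them Gja1 at -0.68. Astrocyte intervals lay above 1 for 3 of the 7, among them Gfap and Slc1a2 at 0.80, where they did for 20% of all genes. Below 1 they lay for 2 of the 7, where they did for 22.2% of all genes. Microglia markers summed to 3.60 FPKM in siYthdf3, against 7.55 FPKM in siNC. Tyrobp was at -1.71 on 8 reads in siYthdf3 and 27 in siNC, and P2ry12 at 0.36 with an interval that included 1. Cx3cr1, below the filter and named with its value known, had 0 reads in siYthdf3 and 2 in siNC, too few to compare. Pericyte, fibroblast and meningeal markers summed to 6.32 FPKM in siYthdf3, against 10.2 FPKM in siNC, and endothelial markers, none past the filter, to 0.686 FPKM in siYthdf3, against 0.949 FPKM in siNC. Their part in the lower mitotic genes was not tested.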

How the data were processed

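Per the file headers, the authors deposited FPKM values for each gene in each library beside its Ensembl identifier, symbol, position and length. The labels' protocols give TRIzol extraction, a digital mRNA kit with molecular identifiers of 12 bases, and paired reads of 150 bases. The submitters' processing notes name the tools StringTie 2.1.4, edgeR 3.40.2, featureCounts, Subread 1.5.1, STAR 2.7.6a and fastp 0.23.2, with no roles. Not given in the sources used here were genome build, annotation, strand setting and identifier collapsing, and reads of overlapping genes are uncertain.

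FPKM times length gave whole reads for 100% of values above 0 (tolerance 0.05), and these reads set depth and intervals; 3 reads in a gene of 1 kilobase are 0.133 FPKM in siYthdf3 and 0.195 FPKM in siNC. Intervals cover counting error only and are too narrow if copies of 1 molecule were counted. With 1 library per group no test between groups was possible, and folds of 2 and 1.5 served as fixed rules of size. The 55 members, 8 role groups and 20 further lists (200 of 206 entries found) were chosen with earlier results of these data known. Of genes that are no members, the text names Ythdf3, Wwtr1 and the lowest and highest 2 of a list, or says that a gene was chosen after its value was seen. Promoter windows came from RefSeq (GRCr8), matched by symbol. The procedure was tested on simulated reads with counting error only, which hold no variation between libraries of a group. Calculations ran in Python 3.11.15 with matplotlib 3.10.9, statsmodels 0.14.6, scipy 1.17.1, pandas 2.3.3 and numpy 2.4.6.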

Additional observations from a re-analysis of the deposited data

How the results depend on the processing

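Counts and medians of the members kept their direction and stayed within 1.5 times of the reported count under 10 other settings (pseudocounts, filters, scalings, a length correction, thinned reads and a minimum of 20 reads). Of the members, 11 to 18 were at least 2-fold lower (14 as reported; 11 with 1 FPKM added, 18 with 0.1 FPKM added), 36 to 44 at least 1.5-fold lower (42 as reported; 36 among the 46 with a mean of at least 5 FPKM), and the median log2 ratio lay between -0.88 and -0.80. Every member that passed the filter, other than Zwint, was below 0 and Zwint above 0 under each of them, with Zwint at 0.13 after rescaling to TPM and 0.15 with a length trend removed. Added after the data were seen, the counts without Zwint were 14 and 42, and those of the 40 members past the filter that overlap no other row 13 and 33. Intervals lay below 1 for 52 members with siYthdf3 thinned to the siNC depth and for 52 after rescaling to TPM. No paired analysis was possible because each group has 1 library, so no alternative speaks to differences between samples, and depth limits Cenpm most.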

Other observations

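Some members share their span with another row of the table, 14 of 55, of which 13 overlap a row on the opposite strand, and whether counting used strand is not known. Tnnc2, which encodes a troponin subunit and lies opposite Ube2c, went the other way from its neighbour, at 4.26 FPKM in siYthdf3, against 1.82 FPKM in siNC, with a ratio of 2.34 (interval 1.42 to 4.0) on 72 reads in siYthdf3 and 21 in siNC. Nrip2 and Tex52 overlap Foxm1 on the same strand and carried like numbers of reads, 374 and 391 in siYthdf3 and 437 and 449 in siNC, beside 357 in siYthdf3 and 402 in siNC for Foxm1. Their ratios, 0.583 for Nrip2 and 0.593 for Tex52, lie beside 0.605 for Foxm1, and whether the rows count shared reads was not tested. These neighbours were chosen after their values were seen.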
